A study of Mus musculus with 40 samples.

Results

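Ribosomal protein genes encode the protein parts of the bacterial ribosome. Genes named rps supply the small subunit, and genes named rpl or rpm supply the large subunit. The members described here are the 247 genes whose symbol, once a trailing copy number was removed, was rpl, rpm or rps followed by 1 capital letter and at most 1 digit. They were taken from the count tables of 5 gut bacteria and make up 50 of 4440 features in Acetatifactor, 46 of 2781 in D. muris, 49 of 2270 in F. rodentium, 51 of 4661 in L.bacterium335 and 51 of 2590 in X. muris. Together these tables hold 16742 features. The members carry 57 different symbols, of which 38 occur in all 5 genomes.

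The RNA came from the cecal contents of C57BL/6 mice, which received the Total Western Diet from the age of 3 weeks. After 6 weeks the animals stayed on that diet for another 3 weeks, with powdered broccoli at 0, 0.5, 1 or 2.5% of it, and all 4 groups of 10 libraries therefore share the Western diet. Ribosomal RNA was depleted with a kit before sequencing, so the messenger RNAs of ribosomal proteins were counted but the ribosomes themselves were not. Each library held between 236483 and 5107249 counts over 6 bacterial genomes, with a median of 825800. Fewer cells of a bacterium and less RNA per cell cannot be told apart in such samples, and nothing in the labels says how many mice a library stands for, so p-values measure the spread between these libraries.

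As background, bacteria hold most ribosomal protein genes in a few long operons. In Escherichia coli the S10 operon and its neighbour, the spc operon, encode proteins of both subunits from 2 long messages. In that species growing cells devote much of their transcription to these operons, and several ribosomal proteins bind their own message to hold back their synthesis. The share of a bacterium's messenger RNA that lies on ribosomal protein genes is thus a common readout of its investment in translation. Here that share is the sum of the members' counts divided by all counts on the same genome in a library, for libraries with at least 10000 counts on that genome. It compares a gene group with the rest of the same bacterium and carries no p-value, because the members were chosen with results of these data known.

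In both Acetatifactor and L.bacterium335, 9 of 10 libraries at 2.5% had a higher ribosomal protein share than every 0% library of the same genome, none of which exceeded 0.426%. With the 5 other features most counted at 0% left out of the denominator, this still held for 9 of 10 libraries in Acetatifactor but for 4 of 10 in L.bacterium335. In D. muris and F. rodentium the share at 2.5% differed from that at 0% by less than the spread within either group. In X. muris the 2 groups overlapped with either denominator. With all counts as the denominator, the mean share at 2.5% was higher than at 0%, by more than the spread within either group. With those 5 features left out, the mean share at 2.5% was lower, but by less than the spread within the 0% group. The plot of shares by dose shows all 5 genomes side by side.

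**Figure D1:**
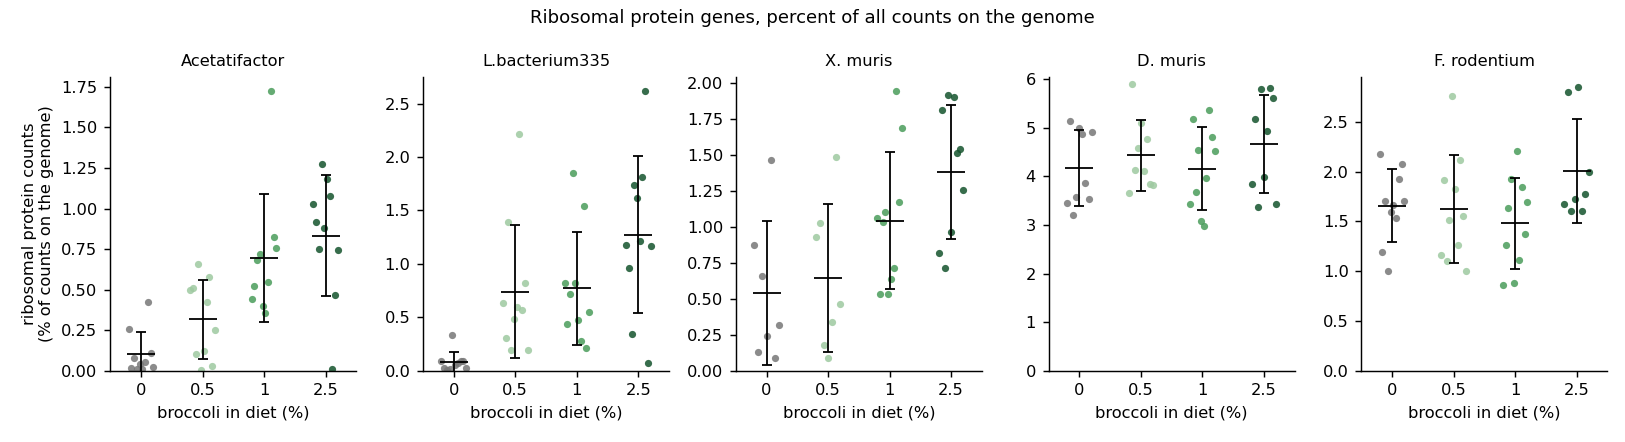
Counts on ribosomal protein genes as a percent of all counts on each genome (y axis, linear, a scale of its own in each panel) against broccoli in the diet (x axis, 4 equally spaced groups). Points are libraries with at least 10000 counts on the genome and bars are the mean ± SD, cut at 0. In Acetatifactor and L.bacterium335, 9 of 10 libraries at 2.5% lie above every 0% library. The same holds for 4 of 9 libraries in D. muris and 2 of 8 in F. rodentium, where the groups overlap.

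The Acetatifactor share averaged 0.103% ± 0.136 (SD, n = 10) at 0%, 0.317% ± 0.243 at 0.5%, 0.697% ± 0.394 at 1% and 0.833% ± 0.373 at 2.5% (n = 10 each). The lowest, median and highest libraries held 0.0105, 0.898 and 1.27% at 2.5%, and 0.00823, 0.0457 and 0.426% at 0%. The groups overlapped through a single library: 9 of 10 at 2.5% exceeded the highest 0% library, and the remaining one, replicate 8, had 3 counts on ribosomal protein genes among 28575. Its share equals the limit that 3 counts would set at that depth. Without it the difference between 2.5 and 0% was 0.821 percentage points, against 0.730 with it. At 1%, 8 of 10 libraries exceeded the highest 0% library, and at 0.5% 4 did.

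L.bacterium335 had a share of 0.0819% ± 0.0958 at 0%, 0.741% ± 0.625 at 0.5%, 0.770% ± 0.532 at 1% and 1.27% ± 0.734 at 2.5% (SD, n = 10 each). Its 2.5% libraries had a lowest, median and highest share of 0.0717, 1.20 and 2.62%, and its 0% libraries 0.00999, 0.0625 and 0.337%. Here too 9 of 10 libraries at 2.5% exceeded every 0% library, as did 7 of 10 at 0.5% and 8 of 10 at 1%. The exception at 2.5% was replicate 9, in which the 5 other features most counted at 0% held 79.2% of the genome's counts. The difference between 2.5 and 0% was 1.19 percentage points with that library and 1.33 without it.

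The X. muris share averaged 0.538% ± 0.498 (n = 7) at 0%, 0.643% ± 0.514 (n = 7) at 0.5%, 1.04% ± 0.476 (n = 10) at 1% and 1.38% ± 0.466 (n = 9) at 2.5%. At 2.5% the lowest, median and highest shares were 0.715, 1.51 and 1.92%, and at 0% they were 0.0868, 0.318 and 1.46%. All 9 libraries at 2.5% lay above the 0% mean, but the groups overlapped, with 5 of 9 above the highest 0% library.

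D. muris devoted the largest share to ribosomal proteins among the 5 genomes at every dose, at 4.17% ± 0.786 (n = 9) at 0%, 4.43% ± 0.728 (n = 9) at 0.5%, 4.16% ± 0.856 (n = 10) at 1% and 4.66% ± 1.01 (n = 9) at 2.5%. At 2.5% the lowest, median and highest shares were 3.37, 4.93 and 5.82%, and at 0% they were 3.21, 3.86 and 5.14%. The difference of 0.490 percentage points was smaller than either SD, and 4 of 9 libraries at 2.5% lay above the highest 0% library. The counts on its ribosomal protein genes summed to 44255 at 2.5% and 10166 at 0%, along with 938910 and 239807 counts on the whole genome, so both were higher at 2.5%.

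F. rodentium kept a similar share on fewer counts. Its genome received 1383682 counts from 8 libraries at 2.5%, against 6582564 from 10 libraries at 0%, and its ribosomal protein genes 25749 counts at 2.5%, against 115371 at 0%. The share was 1.66% ± 0.366 (n = 10) at 0%, 1.62% ± 0.544 (n = 10) at 0.5%, 1.48% ± 0.455 (n = 10) at 1% and 2.01% ± 0.522 (n = 8) at 2.5%. Its lowest, median and highest libraries were at 1.60, 1.75 and 2.85% at 2.5% and at 1.00, 1.68 and 2.18% at 0%, and 2 of 8 libraries at 2.5% lay above the highest 0% library. A further 2 libraries at 2.5% had 161 and 352 counts on the whole genome and could give no share.

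A share depends on what else is in the denominator. The 5 features most counted in the 0% libraries, ribosomal protein genes aside, held a mean of 50.8% of the counts at 2.5% and 86.1% at 0% in X. muris, 16.3% at 2.5% and 74.0% at 0% in L.bacterium335, and 16.1% at 2.5% and 54.1% at 0% in Acetatifactor. They held 14.6% at 2.5% and 15.2% at 0% in F. rodentium, and 4.79% at 2.5% and 11.1% at 0% in D. muris. A single unnamed feature accounted for 48.8% of X. muris counts at 2.5% and 84.5% at 0%. Because the 5 features were picked by their counts at 0%, leaving them out tends to raise the share at 0% the most. No pick over all groups was tried.

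Leaving those 5 features out of the denominator turned the X. muris difference round. Its share of the remaining counts was 3.46% ± 0.932 (n = 7) at 0%, 2.83% ± 1.03 (n = 7) at 0.5%, 2.73% ± 0.599 (n = 10) at 1% and 2.74% ± 0.611 (n = 9) at 2.5%, with the ranges of all groups overlapping. In Acetatifactor the higher share at 2.5% remained, with 0.961% ± 0.418 at 2.5% against 0.201% ± 0.247 at 0%, and 9 of 10 libraries at 2.5% above every 0% library. In L.bacterium335 it was 1.41% ± 0.724 at 2.5% and 0.348% ± 0.434 at 0%, with 9 of 10 libraries at 2.5% above the 0% mean but only 4 above the highest 0% library.

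**Figure D2:**
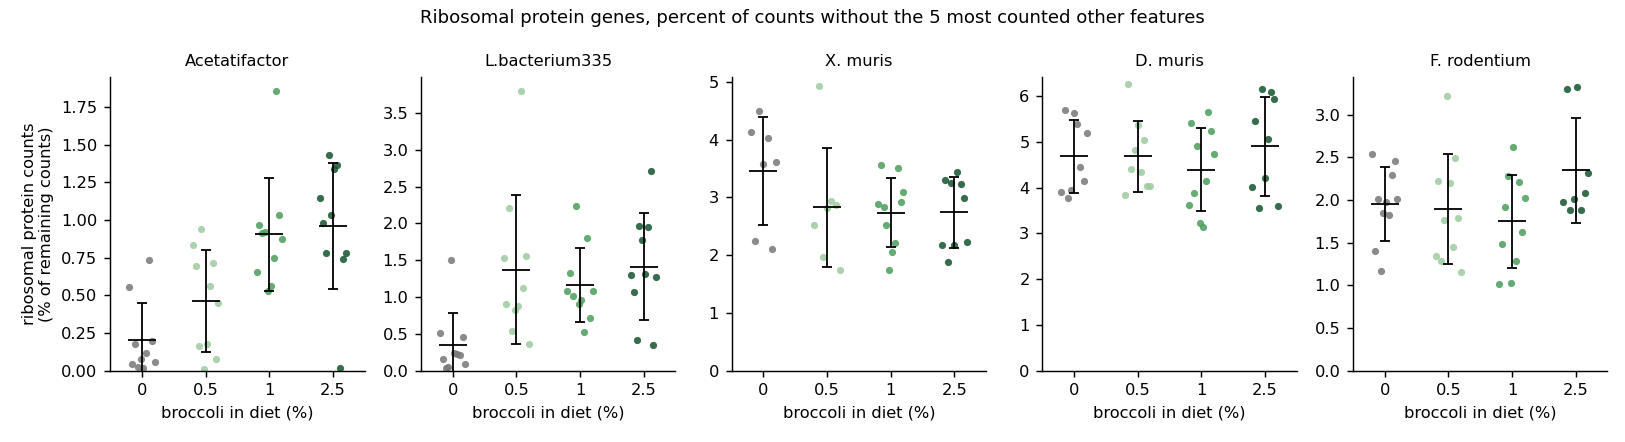
The same share after the 5 features other than ribosomal protein genes most counted at 0% were taken out of the denominator (y axis, percent of the remaining counts, a scale of its own in each panel) against broccoli in the diet (x axis). Points are libraries and bars the mean ± SD, cut at 0. The X. muris means fall to 2.74% at 2.5%, against 3.46% at 0%, whereas 0.961% at 2.5% stands above 0.201% at 0% in Acetatifactor.

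The counts in L.bacterium335 without broccoli differed in kind as well as in number. At 2.5% its 10 libraries together gave 78639 counts on ribosomal protein genes, which fell on all 51 members. At 0% they gave 656 counts on 21 members, and 30 members had none. The 5 members most counted at 0%, rpsS, rplN, rplP, rpsJ and rplF, were picked after their values were seen. They took 68.9% of the summed ribosomal protein counts at 0%, 12.1% at 0.5%, 10.2% at 1% and 9.97% at 2.5%. Because they were picked by their counts at 0%, a higher percent there was built in. The 5 most counted members of each group itself took 68.9% at 0%, 30.3% at 0.5%, 30.8% at 1% and 32.3% at 2.5%.

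In E. coli rpsS, rplP and rpsJ belong to the S10 operon and encode proteins S19, L16 and S10, while rplN and rplF belong to the spc operon and encode L14 and L6. The L.bacterium335 counts on rpsS summed to 1168 at 2.5% and 148 at 0%, those on rplN to 653 at 2.5% and 125 at 0%. By contrast, rplB and rplD, which stand between rpsJ and rpsS in the S10 operon of E. coli, had 2693 and 2587 counts at 2.5% and 0 counts in all 10 libraries at 0%. Likewise rplE, a spc operon gene for the 5S RNA binding protein L5, had 2069 counts at 2.5% and 0 at 0%. Not every other gene was at 0, as rplC, also of the S10 operon in E. coli, had 2918 counts at 2.5% and 8 at 0%. This contrast was drawn after the values were seen.

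The single exception at 2.5%, replicate 9, resembled the 0% libraries in this respect. It had 73 ribosomal protein counts on 13 of 51 members, with 72.6% of them on the same 5 genes, whereas the other 9 libraries at 2.5% had counts on 46 to 51 members and between 7.24 and 11% on those genes. Among the 0% libraries, replicate 5 alone gave 307 of the 656 counts, with 70.0% of its counts on the 5 genes.

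Because deeper libraries reach more genes, each was also brought to the same number of ribosomal protein counts. Among 50 randomly drawn counts, the expected number of different members in L.bacterium335 was 10.3 ± 1.80 at 0% (SD, n = 4 libraries with at least 50 such counts), 23.7 ± 2.44 at 0.5%, 23.5 ± 2.35 at 1% and 23.5 ± 4.34 at 2.5% (n = 10 each). Every 0.5% and 1% library and 9 of 10 at 2.5% exceeded the highest 0% library. In the other genomes the means lay between 21.4 and 25.2 in every group, the lowest being that of the 2 Acetatifactor libraries at 0% that had enough counts. In D. muris it was 24.5 ± 0.717 at 2.5% and 24.6 ± 0.802 at 0%, and in F. rodentium 23.6 ± 0.930 at 2.5% and 24.3 ± 0.426 at 0%.

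**Figure D3:**
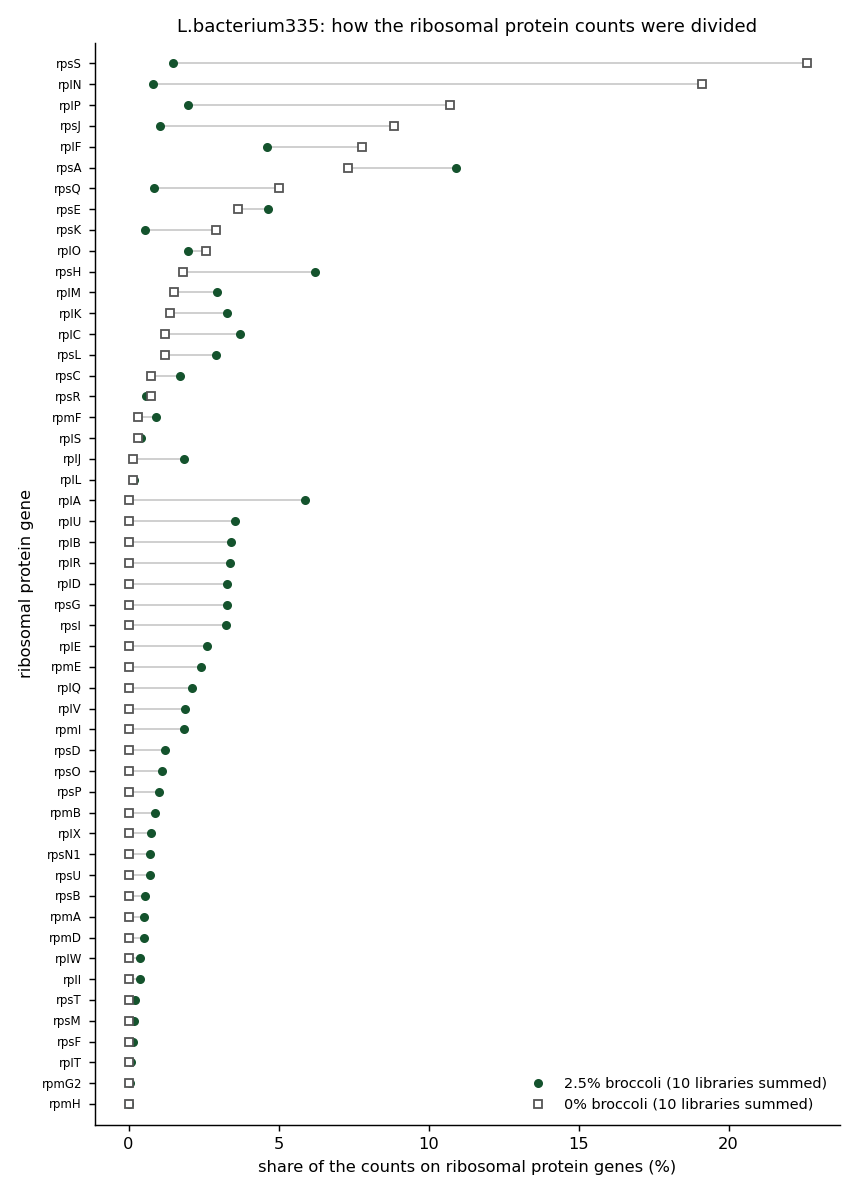
Division of the L.bacterium335 ribosomal protein counts over its 51 members (y axis, ordered by their share at 0%), as a percent of all counts on these genes (x axis), for the 10 libraries of each group summed. Filled circles are 2.5% (78639 counts) and open squares 0% (656 counts); the 5 genes at the top hold 9.97% at 2.5% and 68.9% at 0%, and 30 genes have no count at 0%.

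Single genes were tested over each genome's whole table by edgeR's quasi-likelihood method (two-sided), and a gene was called at a Benjamini-Hochberg adjusted p under 0.05. A fold change compares a gene with the remaining genes of its own genome, and levels are CPM, counts scaled by TMM to a common total within that genome. Members with few counts were filtered out before testing. A member that passed this filter only through its counts under broccoli was bound to differ, so the counts of calls in L.bacterium335 and Acetatifactor describe the members that passed and are not evidence about the group.

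In L.bacterium335, 33 of the 51 members passed. At 2.5%, 29 of them rose and 0 fell, where 77.8% of all 1384 tested genes were called higher and 15% lower. At 0.5%, 30 rose and 0 fell, against 79.4 and 0.723% of all tested genes. At 1%, 29 rose and 0 fell, against 78.4 and 1.52%. The members' median log2 fold change at 2.5% was 5.02 with genes at 0 counts set to their lower bound, and 5.29 over all tested genes treated in the same way. As fitted values without bounds, these medians were 6.57 and 7.94. They were 5.49 and 5.23 without the filter, and 7.47 and 5.62 in DESeq2, so which was larger depended on the fit. Without the filter 43 of 51 members were called, beside 76.7% of all 4240 genes in either direction, and with RLE in place of TMM factors all 33 tested members were, beside 85.3% of all 1384 genes.

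For 16 of the 33, among them rplA, the 0% libraries had no count at all, and only a lower bound can be given, against a floor of 3 counts over the whole 0% group. These bounds ran from 26.2-fold to 173-fold at 2.5%, with a median of 74.4-fold. The largest belonged to rplA, for protein L1, which lies where spent tRNAs leave the ribosome. It had 4624 counts at 2.5%, with 0, 573 and 1049 CPM in the lowest, median and highest libraries. At 0.5% it was at least 136-fold and at 1% at least 127-fold higher than at 0%. High bounds were also found for rplB (at least 101-fold at 2.5%), for protein L2 near the site of peptide bond formation, rplR (at least 99.8-fold) for the 5S RNA binding protein L18, rplD (at least 96.8-fold) for L4 of the exit tunnel, rpsI (at least 95.3-fold) for S9 and rplE (at least 77.5-fold). The gene rplQ, for L17, was at least 88.0-fold higher at 0.5% and at least 61.7-fold at 2.5%. Each of these 7 genes had counts in 9 of 10 libraries at 2.5%, and replicate 9 had none of any.

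The most counted member of L.bacterium335 was rpsA, for S1, which in E. coli brings messages to the ribosome. It had 0, 1133 and 1650 CPM in the lowest, median and highest libraries at 2.5%, and 0, 10.7 and 321 at 0%. Its log2 fold change was 4.12 ± 0.66 (SE, edgeR adjusted p = 2.63e-08), with 9 of 10 libraries at 2.5% above all at 0%. The gene rpsH, for S8, rose by 5.21 ± 0.78 (adjusted p = 4.49e-09 from edgeR), and all 12 of its counts at 0% came from replicate 5. Without that library the fitted value was 10.3, which depends on the fit's prior count and is no bound. For rpsE, encoding S5, the change was 3.87 ± 0.75 and for rplC, encoding L3, it was 5.08 ± 0.77 (edgeR adjusted p = 1.81e-06 and 6.5e-09). For rplJ, whose product L10 anchors a stalk of the large subunit, 1449 counts at 2.5% stood against 1 at 0%, a 163-fold ratio that counting error alone places between 29.2 and 6430 (95% interval).

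The 4 tested members not called in L.bacterium335 at 2.5%, named after their values were seen, were rplN, rpsJ, rpsQ and rpsS. Of these, rpsS stood at 41.2, 140 and 250 CPM in the lowest, median and highest libraries at 2.5%, and 0, 59.9 and 763 at 0%, so that the groups overlapped. Its log2 fold change was -0.31 ± 0.64, and those of rplN, rpsJ and rpsQ were -0.48 ± 0.61, 0.27 ± 0.68 and 0.85 ± 0.70 (edgeR adjusted p between 0.235 and 0.708). All 4 were called higher with RLE factors.

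In Acetatifactor 12 of 50 members passed the filter. At 2.5%, 11 of them rose and 0 fell, where 54.5% of all 773 tested genes were called higher and 22.5% lower. At 1%, 10 rose and 0 fell, against 49.5 and 18.2% of all tested genes. At 0.5% only rpsC rose and 0 fell, against 21.6 and 3.49%. The members' median log2 fold change at 2.5% was 2.51, and that of all tested genes 1.81. Without the filter these medians were 2.48 over all 50 members and 2.45 over 3895 genes, so they hardly differed. In DESeq2, on the same genes, they were 4.36 and 3.9. With the log of the genome's total counts as a covariate, 3 members were called at 2.5%, rplE, rpsC and rplA, and 6 at 1%, where 16.3 and 35.4% of all 773 genes were called in either direction, so that calls fell across the whole genome.

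The smallest p-values were those of rplE and rpsC. The first, for L5, had 0, 442 and 703 CPM in the lowest, median and highest libraries at 2.5%, and 0, 0 and 116 at 0%. It rose by 3.94 ± 0.79 (edgeR adjusted p = 6.53e-05), with 9 of 10 libraries at 2.5% above all at 0%, and by 3.43 ± 0.79 at 1%. The gene rpsC, for S3 at the entry of the messenger channel, rose by 3.65 ± 0.82 at 2.5% (edgeR adjusted p = 0.000219), 3.37 ± 0.82 at 1% and 2.59 ± 0.84 at 0.5% (adjusted p = 0.0236 from edgeR). Its value at 2.5% was 6.16 without 0% replicate 1, which held 6 of its 7 counts at 0%.

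Among the others in Acetatifactor, rplA changed by 3.18 ± 0.78, rplB by 2.77 ± 0.69, rpsA by 2.42 ± 0.73, rpsE by 2.21 ± 0.78 and rpsH by 1.68 ± 0.71 at 2.5% (edgeR adjusted p between 0.000543 and 0.0284). The most counted of these, rplB, stood at 0, 688 and 1140 CPM in the lowest, median and highest libraries at 2.5%, and at 0, 42.7 and 344 at 0%. All but 1 of its 2.5% libraries were above every 0% library. The rises of rplC (1.87 ± 0.77, edgeR adjusted p = 0.0264) and rplJ (1.92 ± 0.76) were near the threshold, as was that of rpsH (edgeR adjusted p = 0.0284). Of these, rplC lost its call in 3 of 20 fits that left out 1 library. Without 0% replicate 8 the log2 fold changes of rplC and rpsE were 3.85 and 4.03. The 1 tested member not called was rplR (1.53 ± 0.74, edgeR adjusted p = 0.0552).

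**Figure D4:**
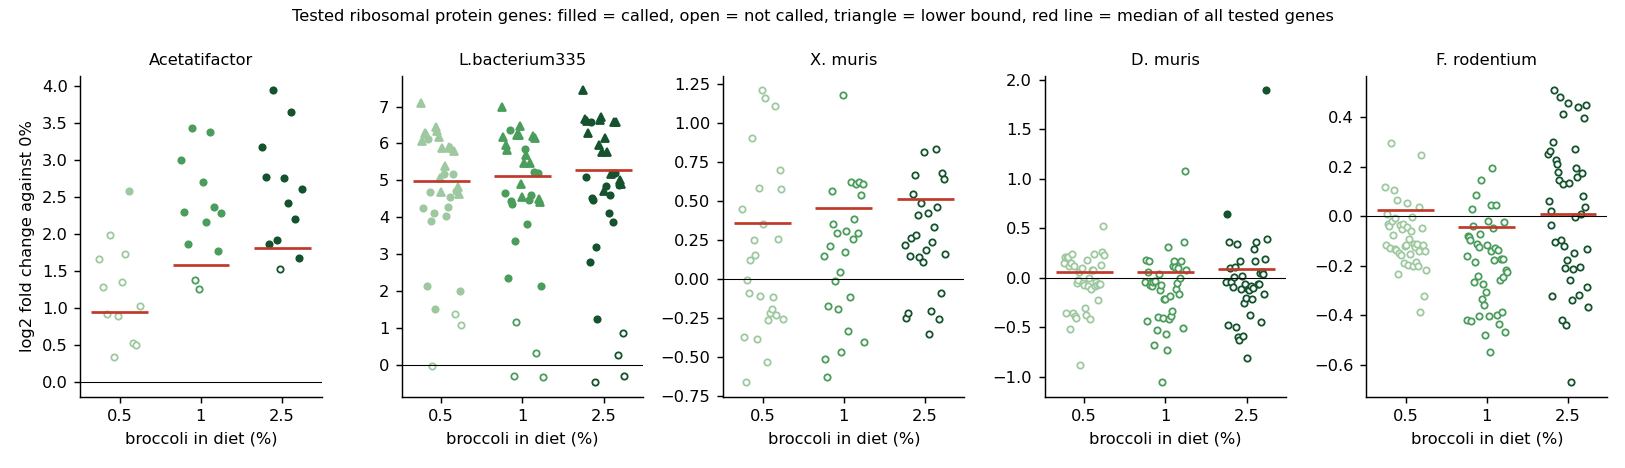
Log2 fold change against 0% (y axis, a scale of its own in each panel) of each tested ribosomal protein gene at each broccoli dose (x axis). Filled points were called by edgeR, open points were not, and triangles are lower bounds for genes with no count at 0%; the red line is the median of all tested genes of the genome with such genes at their bound. At 2.5%, members were called in L.bacterium335 (29), Acetatifactor (11) and D. muris (2), and none in X. muris and F. rodentium.

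In D. muris 40 of 46 members were tested. At 2.5%, 2 rose and 0 fell, which is 5% of the tested members, where 3.88% of all 1108 tested genes were called higher and 6.68% lower. At 0.5% edgeR called 0 members, against 1.81% of all tested genes higher and 3.16% lower, and at 1% it called 0, against 2.53 and 3.70%. At an unadjusted p under 0.05 there were 1 and 3 members at these doses, and DESeq2 called 0 at either and 2 at 2.5%. The median log2 fold change at 2.5% was -0.06 over the members and 0.08 over all tested genes, and 17 of the 40 were above 0.

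The larger change was that of rpsS, for protein S19 in the head of the small subunit. In D. muris it had 119, 2275 and 3087 CPM in the lowest, median and highest libraries at 2.5%, and 90.2, 429 and 1272 at 0%, with 671 the median at 0.5% and 693 at 1%. The groups overlapped, with 6 of 9 libraries at 2.5% above the highest 0% library and replicate 1 near the bottom of the 0% range. Its log2 fold change was 1.89 ± 0.54 at 2.5% (edgeR adjusted p = 0.0155), 1.08 ± 0.54 at 1% (adjusted p = 0.324 from edgeR) and 0.52 ± 0.56 at 0.5%. It kept its call at 2.5% in all 18 fits that left out 1 library and in all 7 other settings tried.

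The second call in D. muris was rplB, which precedes rpsS in the E. coli S10 operon. It stood at 1773, 3728 and 4159 CPM in the lowest, median and highest libraries at 2.5%, and at 1473, 2027 and 3322 at 0%, with 6 of 9 libraries at 2.5% above the highest 0% library. Its rise was 0.65 ± 0.21 by log2 (adjusted p = 0.0406 from edgeR). That call was lost in 13 of 18 fits that left out 1 library, with adjusted p up to 0.0829, and with the genome's total as a covariate (0.0621). Other genes of that E. coli operon had log2 fold changes of -0.47 ± 0.28 (rplC), 0.37 ± 0.25 (rplD), -0.21 ± 0.19 (rpsC) and 0.17 ± 0.20 (rplP), none of them called; rplD and rplP were picked after their values were seen. Among other members with many counts the value was -0.04 ± 0.19 for rplA, 0.10 ± 0.17 for rplE and 0.02 ± 0.18 for rplS, which encodes L19 between the subunits. The genes rplJ, rpsE and rpsH had log2 fold changes of 0.01 ± 0.25, 0.29 ± 0.21 and 0.36 ± 0.24.

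**Figure D5:**
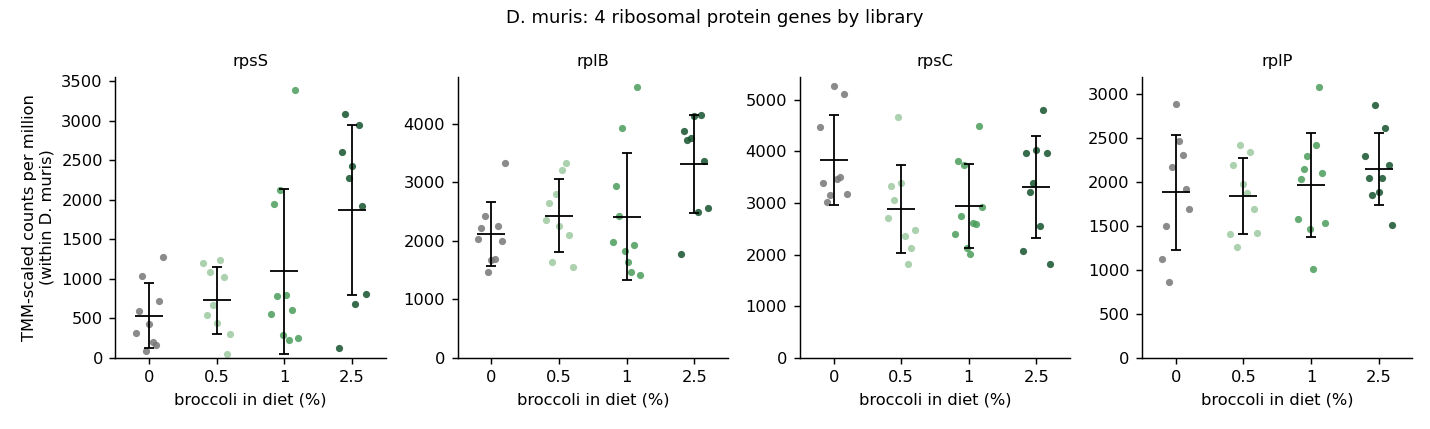
Levels of 4 ribosomal protein genes of D. muris (y axis, CPM after TMM scaling within the genome, a scale of its own in each panel) against broccoli in the diet (x axis). Points are libraries and bars the mean ± SD. For rpsS the median library is at 2275 at 2.5% against 429 at 0%, whereas rpsC and rplP, which lie in the same operon of E. coli, overlap throughout.

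In F. rodentium 45 of 49 members were tested and edgeR called 0 at any dose. Of all 1689 tested genes it called 3.55% higher and 4.91% lower at 0.5%, 0.474% higher and 0.00% lower at 1%, and 5.39% higher and 4.03% lower at 2.5%. At an unadjusted p under 0.05 there were 0, 2 and 2 members, DESeq2 called 2 at 2.5%, and edgeR with RLE factors called 1. The median log2 fold change of the members at 2.5% was 0.04, against 0.01 over all tested genes, and every tested member lay within 0.67 of 0. Standard errors at 2.5% ranged from 0.158 to 0.558 with a median of 0.264, so differences of a doubling or less may be missed. On simulated data for this comparison the test found 63% of 2-fold changes.

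A single gene, rplM, took more counts than any other F. rodentium ribosomal protein gene. It encodes L13, which in E. coli joins the large subunit early in assembly. It took 14.9% of the ribosomal protein counts at 0%, 15.4% at 0.5%, 18.1% at 1% and 15.4% at 2.5%. Its level was 2107, 2735 and 3859 CPM in the lowest, median and highest libraries at 2.5%, and 1237, 2552 and 3340 at 0%, which overlap, and its log2 difference was 0.21 ± 0.21 (adjusted p = 0.575 in edgeR). The next most counted members, rplO for L15, rpsG for S7 and rpsH for S8, had log2 fold changes of 0.14 ± 0.16, 0.27 ± 0.22 and 0.20 ± 0.17. The largest value among the ribosomal protein genes named in F. rodentium was that of rplJ, at 0.51 ± 0.23 (edgeR adjusted p = 0.148, and 0.0398 by DESeq2). The copies rpmG2_1 and rpmG2_2 are counted apart and their split is uncertain.

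In X. muris 26 of 51 members were tested and edgeR called 0 at any dose, with 0 at an unadjusted p under 0.05. Of all 670 tested genes it called 0.00% in either direction at 0.5%, 5.37% higher and 1.19% lower at 1%, and 9.55% higher and 1.49% lower at 2.5%. DESeq2 also called 0 members. The median log2 fold change at 2.5% was 0.25 over the members and 0.51 over all tested genes. Without scaling factors these medians were 1.61 and 1.85, a shift of 1.34 for all tested genes, and 20 of 26 members were called higher, beside 483 of all 670 tested genes. Relative to the median of all tested genes the members stood at -0.26 with TMM factors and -0.24 without. The same value was -0.546 without the filter and 0.144 in DESeq2, so its sign depended on the fit.

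The often counted X. muris members rplA and rplE had log2 fold changes of 0.22 ± 0.41 and 0.26 ± 0.40 at 2.5%, and rplB and rpsA of -0.25 ± 0.42 and -0.35 ± 0.41. The level of rplE was 522, 688 and 901 CPM in the lowest, median and highest libraries at 2.5%, and 167, 366 and 1694 at 0%, so that the 2.5% values fell inside the 0% range. Standard errors ran from 0.398 to 0.691, and on simulated data for this comparison the test found 51.3% of 2-fold changes, so changes of about a doubling may be missed.

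Of the 57 symbols, 7 could be tested in all 5 genomes: rplA, rplB, rplC, rplE, rplJ, rpsE and rpsH. In L.bacterium335 all 7 were called higher at 2.5%, beside 77.8% of its tested genes, and in Acetatifactor all 7 were, beside 54.5%. Since the 7 had to pass the filter in both genomes, these counts are a description only. In D. muris 1 of the 7 was called, rplB, and in F. rodentium and X. muris none were. For rplC the log2 fold changes at 2.5% were 5.08 ± 0.77 in L.bacterium335, 1.87 ± 0.77 in Acetatifactor, 0.26 ± 0.25 in F. rodentium, -0.22 ± 0.50 in X. muris and -0.47 ± 0.28 in D. muris. The genomes were scaled separately, and a difference between them was not tested.

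The balance of the subunits was compared in libraries with at least 50 ribosomal protein counts. Small-subunit genes took 39.6% ± 2.38 of the ribosomal protein counts of D. muris at 2.5% and 38% ± 2.67 at 0%, and in F. rodentium 32.8% ± 1.59 at 2.5% and 33.9% ± 0.925 at 0%. In L.bacterium335 they took 42.2% ± 5.41 at 2.5% (n = 10) and 55.0% ± 15.1 at 0% (n = 4), and in Acetatifactor 42.7% ± 4.07 at 2.5% (n = 9) and 48.2% ± 1.17 at 0% (n = 2). For X. muris it was 35.8% ± 1.67 at 2.5% (n = 9) and 32.3% ± 6.47 at 0% (n = 4). The ranges of the 2 groups overlapped in each of these 5 genomes.

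Genes for ribosome assembly, modification of ribosomal RNA or proteins, and ribosome hibernation were examined as a companion list. At 2.5%, 3 of 3 tested genes of this list rose in Acetatifactor, 0 of 17 were called in D. muris, 1 of 35 rose and 3 fell in F. rodentium, 7 of 8 rose in L.bacterium335 and 2 of 4 rose in X. muris. The shares of all tested genes called higher were 54.5, 3.88, 5.39, 77.8 and 9.55% in the same order of genomes, and 4.03% were called lower in F. rodentium. The list's median log2 fold change at 2.5% was 2.64 in Acetatifactor, 0.09 in D. muris, -0.23 in F. rodentium and 1.95 in X. muris, beside 1.81, 0.08, 0.01 and 0.51 over all tested genes. The tested list genes had between 6 and 12 counts each over the 0% group in Acetatifactor, and between 5 and 12 in X. muris. A list gene that passed the filter only through its counts under broccoli was bound to differ. The list's calls and medians in Acetatifactor, L.bacterium335 and X. muris are thus a description only.

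In F. rodentium, where no ribosomal protein gene was called, rnr, for the exoribonuclease RNase R, and obg, for a GTPase of large subunit assembly, fell by 0.72 ± 0.21 and by 0.76 ± 0.23 on the log2 scale at 2.5% (edgeR adjusted p = 0.0224 and 0.0308). The level of rnr was 540, 2027 and 3120 CPM in the lowest, median and highest libraries at 2.5%, and 2148, 3319 and 4416 at 0%. The third to fall, named after its value was seen, was yqeH, for a GTPase of small subunit assembly known from Bacillus subtilis (-0.63 ± 0.20). The RNA helicase gene deaD, known in E. coli for cold-shock ribosome assembly, rose by 2.38 ± 0.73 at 2.5% (adjusted p = 0.0308 from edgeR) on 71 counts at 2.5% and 36 at 0%. The calls of deaD, obg and rnr were lost in 4, 3 and 1 of 18 fits that left out 1 library, and all 3 were lost with the covariate (adjusted p = 0.101, 0.113 and 0.0791 from edgeR). That of obg was also lost with RLE factors (0.0696) and with none (0.117).

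In X. muris rnr rose by 2.43 ± 0.54 at 2.5% (edgeR adjusted p = 0.000362), with 442, 648 and 914 CPM in the lowest, median and highest libraries at 2.5% and 0, 113 and 244 at 0%. The groups did not overlap, where 9.55% of all tested genes were called higher, and the call was lost with the covariate (adjusted p = 0.0769 from edgeR). The whole 0% group had only 12 counts on rnr. The small-subunit maturation gene rimP rose by 2.35 ± 0.79 (edgeR adjusted p = 0.0354), a call lost in 8 of 16 fits that left out 1 library, and also with RLE factors, in DESeq2 and with the covariate. All 5 of its counts at 0% came from replicate 7. Without that library the fitted value was 7.23, which depends on the fit's prior count and is no bound. In Acetatifactor rimO, which modifies protein S12, and rsmB, a 16S RNA methyltransferase gene, rose by 3.00 ± 0.83 and by 2.64 ± 0.75 (edgeR adjusted p = 0.0018 and 0.00207). All 6 counts of rimO at 0% came from replicate 3. Without that library its fitted value was 6.96, which likewise depends on the prior count and is no bound. The calls of rimO and rsmB were both lost with the covariate (edgeR adjusted p = 0.337 and 0.34). In L.bacterium335 yvyD, whose B. subtilis counterpart pairs idle ribosomes, had 3999 counts at 2.5% and 1 at 0%, which is a 449-fold ratio with 95% limits from counting error of 80.6 and 17700. The gene rluD, for a pseudouridine synthase of 23S RNA, was at least 85.2-fold higher at 2.5%.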

How the data were processed

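Raw counts per feature, whole numbers with no normalization, were deposited by the authors in 1 table per bacterial genome. The sources used here do not give the build, aligner or counting program. Reads shared between genomes or gene copies may have been counted in ways that are not stated. Groups came from the treatment label. Each genome was fitted alone on its whole table with edgeR 4.0.16 (R 4.3.3), using libraries with at least 10000 counts on it, filterByExpr, TMM factors, the 4 diets as the only factor and Benjamini-Hochberg adjustment over all tested genes, with a threshold of 0.05. Stable RNA features were left out of these fits. Each standard error was derived from the test's F value and fold change. Genes at 0 in all 0% libraries have a lower bound against 3 counts over the group. Intervals and floors cover counting error only. Shares and expected member numbers in 50 counts were computed with Python 3.11.15 and pandas 2.3.3. DESeq2 1.42.0, RLE or no factors, no filter, other depth minimums, a depth covariate and leaving out libraries were alternatives.

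The members and lists were chosen with earlier results of these data known. Named genes were, in each genome, the called members with the smallest p (up to 4 each way at 2.5%, 2 at lower doses), the 4 most abundant, those tested in all 5 genomes, and up to 2 called companion genes each way, 58 genes in all. Others were named after their values were seen. Another 45 ribosomal protein genes lie in the Alistipes table, in which no 0% library reached 10000 counts, and 2 symbols that only begin in the stated way (rplGA) were not members. No pair of the 180 within groups was identical, with a smallest chi-square per degree of freedom of 10.6. On data simulated from the 2.5% comparison, the test found 4-fold changes in 86.8% of the Acetatifactor genes so changed (with 304 genes in the run), in 97.5% for D. muris (803 genes), in 97.9% for F. rodentium (1467 genes), in 91.7% for L.bacterium335 (202 genes) and in 100% for X. muris (528 genes). Of 2-fold changes it found 19.8% in Acetatifactor, 71.9% in D. muris, 63% in F. rodentium, 44.8% in L.bacterium335 and 51.3% in X. muris. The simulation capped the spread of each gene and gave both groups a shared mean profile apart from the planted changes. A gene with fewer counts at 0% than at 2.5% was thus simulated with more at 0% than it had. Only those 2 groups were fitted. These percentages may therefore be too high for the data themselves.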

Additional observations from a re-analysis of the deposited data

Results flagged for a closer look

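In Acetatifactor, 1% replicate 8 had a ribosomal protein share of 1.72%, far above the other 9 libraries of its group. In L.bacterium335, 0% replicate 5 had a share of 0.337%, far above the other 9 of its group, and it gave 307 of the 656 counts on these genes at 0%. For normally distributed values, chance alone would set a library apart in this way in about 1 of 20 groups, and 20 groups were looked at. Whether the shares were so distributed was not tested, so their own rate is not known. The Alistipes table was not used in the comparisons. Its 45 ribosomal protein genes had at least 154 counts in every 2.5% library, against 4 to 104 in the 0% libraries. The genome's total rose more, from between 51 and 336 at 0% to between 3692 and 44380 at 2.5%. No 0% library, and not every 2.5% library, reached the 10000 counts required for a share in the other genomes. Taken without that minimum, the ribosomal protein share had a mean of 3.72% at 2.5% against 28.7% at 0%. A mean of 6.4 of the 45 genes had counts at 0%, and 35.6 at 2.5%, so the 0% shares rest on few counts and few genes. In these shares 9 of 10 libraries at 2.5% lay below the lowest 0% library.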

How the results depend on the processing

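No paired analysis was possible because the replicate numbers were given in accession order and tie no sample to another. Of 69 recomputed share differences, 66 stayed within the spread between libraries. With the 5 other features most counted at 0% left out of the denominator, the X. muris differences from 0% were -0.632 percentage points at 0.5%, -0.725 at 1% and -0.716 at 2.5%, against 0.105, 0.503 and 0.842 with all counts. Of 111 recomputed counts of called members, 94 stayed within 1.5 times. In Acetatifactor the count at 0.5% was 6 with RLE factors, 5 with none, 4 without the filter and 18 with DESeq2, against 1, while 47.9, 41.4, 20.8 and 26.5% of all genes tested in those fits were called. At 1% it was 31 without the filter, 44 with DESeq2 and 6 with the covariate, and at 2.5% it was 36, 45 and 3, all 50 members being tested without the filter and in DESeq2. The shares of all tested genes called were then 47.5, 45.8 and 35.4% at 1% and 65.2, 65.5 and 16.3% at 2.5%. DESeq2 called 45 members of L.bacterium335 at 1% and 50 at 2.5%, of 51 tested, beside 56.8 and 67.7% of all 4240 genes. In D. muris the covariate left 1 call at 2.5% (1.99% of all genes). In F. rodentium RLE factors gave 1 call at 2.5% and DESeq2 2 (9.24 and 13.5% of all genes), and in X. muris no factors gave 4 at 1% and 20 at 2.5% (41.6 and 73% of all genes). With 1 library left out, the counts at 2.5% lay between 11 and 13 for Acetatifactor, between 1 and 2 for D. muris, at 0 in every case for F. rodentium, between 28 and 30 for L.bacterium335 and between 0 and 2 for X. muris, the 2 without 0% replicate 7. The share differences likewise ranged from 0.681 to 0.821, 0.345 to 0.651, 0.226 to 0.405, 1.04 to 1.33 and 0.767 to 0.996 in the same order. Under RLE factors the all-gene median at 2.5% shifted by 2.03 (log2) in Acetatifactor and 1.26 in L.bacterium335. The share of all calls that were higher at 2.5% was 70.8% as reported and 96.3% with RLE factors in Acetatifactor, 83.8 and 97.2% in L.bacterium335, 57.2 and 71.2% in F. rodentium and 86.5 and 71.1% in X. muris, and without factors it was 57.0% in D. muris against 36.8%. The only member called lower in any of these fits was 1 in D. muris without 2.5% replicate 7. A minimum of 50000 counts was not run in Acetatifactor, D. muris and X. muris, where it leaves no 0% library. The causes were not tested. Libraries numbered 76 to 81 hold no 0% sample; without them rplC of Acetatifactor and deaD and obg of F. rodentium lost their calls (adjusted p = 0.053, 0.0678 and 0.0667 from edgeR). The shallowest 0% libraries in use had 11201 counts in X. muris, 13287 in D. muris, 18763 in L.bacterium335, 23963 in Acetatifactor and 118257 in F. rodentium.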
